A study of Mus musculus with 3 samples.

Results

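Secreted or cytosolic defence proteins of surface epithelia are described here by their transcripts in single cells from the mouse limbus and iridocorneal angle. The 9 genes, *Pglyrp1*, *Lcn2*, *Sftpd*, *Slpi*, *Defb1*, *Wfdc2*, *Wfdc18*, *S100a8* and *S100a9*, are 9 of the 31053 genes in the count matrices. They were chosen by measured values, their counts of unique molecular identifiers (UMIs) by cell label and library in these same data, with attention to the labels 2, 3, 4 and 5. The level of a gene in a label is therefore given as a description, with no test. The labels 2 to 5 hold 3468 of the 26008 kept cells and are 4 of the 35 cell labels.

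Single cells were measured in 3 droplet libraries. Control replicate 1 and control replicate 2 came from *Angpt1* flox/flox mice, and the third library came from *Angpt1* flox/flox;Wnt1Cre+ mice, called *Angpt1*ΔNC. All animals were of mixed strain, crossed for 2 generations onto albino ICR mice and 6 weeks old. Each library is described as a pool of 4 to 6 eyes of 2 to 3 mice of both sexes. Both groups carry the floxed allele and differ by the Wnt1-Cre transgene, which deletes in the neural crest, whereas the surface epithelium of the eye does not derive from the neural crest. The library is the replicate, *Angpt1*ΔNC has a single one, and its genotype, its pool of animals and its library cannot be told apart.

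The surface of the eye is kept clear of microbes by proteins that its epithelium makes and releases into the tear film. Some bind the bacterial surface (peptidoglycan recognition proteins and collectins), some hold back metal ions (lipocalin 2 and calprotectin), and some open bacterial membranes (defensins). Of the whey acidic protein (WAP) domain proteins, some inhibit the proteases of neutrophils. The conjunctiva, the limbus with the corneal stem cells, and the central cornea are neighbouring zones of this epithelium. *S100a8* and *S100a9*, the subunits of calprotectin, are also among the most abundant transcripts of neutrophils.

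The targeted gene followed the labels. In the libraries of control replicate 1, control replicate 2 and *Angpt1*ΔNC, an order kept wherever 3 values are given below, 17.2%, 17.3% and 0.340% of kept cells held a UMI of *Angpt1*. Within the labels 2 to 5 the gene was seen in 3, 6 and 0 cells. Although the pools are described as of both sexes, no control cell of the labels 2 to 5 held a UMI of *Xist*, the transcript of the inactive X chromosome. In *Angpt1*ΔNC 57.9% of these cells did. Over all cells of these labels, sex is thus confounded with genotype. Results on genotype are therefore also given for Y-linked cells, those in which a Y-linked transcript but no *Xist* was counted. The libraries shared 13 to 25 barcodes among kept cells, none of them in the labels 2 to 5. These labels made up 12.6%, 11.3% and 17.3% of the kept cells and 30.7%, 26.0% and 37.2% of their UMIs, respectively.

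The level of a gene is its mean over cells of UMIs per 10,000 UMIs of the cell. The 7 conjunctival markers (*Krt4*, *Krt13*, *Krt19*, *Krt8*, *Krt18*, *Muc1* and *Muc4*) summed to 32.3, 31.9 and 30.6 in label 3 and to between 0.626 and 12.5 in the labels 2, 4 and 5. Corneal markers such as *Krt12* and *Aldh3a1* summed to 371, 303 and 264 in label 5 and to at most 81.2 elsewhere in the 4 labels. Cycling markers such as *Mki67* were highest in label 2 (14.8, 15.9 and 10.2). Limbal markers summed to 236, 256 and 209 in label 4 and to 199.9, 244 and 231 in label 3, so they were higher in label 4 in the controls only and do not separate these labels, which differ by the conjunctival list. Label 2 is called cycling-like epithelium below, label 3 conjunctival-like, label 4 limbal-like and label 5 corneal-like. The median depth of a cell in these labels ran from 12359 to 26906.5 UMIs.

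All 9 genes are protein-coding, and each had a single row in the files. In the GENCODE M21 annotation of GRCm38, *S100a8* (ENSMUSG00000056054, chr3:90668978-90670035, plus strand) and *S100a9* (ENSMUSG00000056071, chr3:90692632-90695721, minus strand) are separated by 22.6 kb. *Slpi* (ENSMUSG00000017002, chr2:164354070-164389095, minus strand) and *Wfdc2* (ENSMUSG00000017723, chr2:164562413-164568510, plus strand) are separated by 173.3 kb, and *Slpi* overlaps the microRNA gene *Mir7678* on the same strand. The others are *Pglyrp1* (ENSMUSG00000030413, chr7:18871331-18890459), *Lcn2* (ENSMUSG00000026822, chr2:32384633-32388252), *Sftpd* (ENSMUSG00000021795, chr14:41172214-41185149), *Defb1* (ENSMUSG00000044748, chr8:21776599-21795185) and *Wfdc18* (ENSMUSG00000000983, chr11:83709015-83711348).

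The 250 bases before the RefSeq start (GRCm38.p6) are printed for 5 of the 7 genes that had an entry, because these 5 differed most between genotypes in the results given further on or form the calprotectin pair. Capitals mark matches to the C/EBP letters TTNNGNAA, the kappaB letters GGANNNTCC or the letters TATAAA of a basal promoter element, each searched on both strands. None of the matches overlapped.
Pglyrp1, chr7:18884440-18884689, plus strand: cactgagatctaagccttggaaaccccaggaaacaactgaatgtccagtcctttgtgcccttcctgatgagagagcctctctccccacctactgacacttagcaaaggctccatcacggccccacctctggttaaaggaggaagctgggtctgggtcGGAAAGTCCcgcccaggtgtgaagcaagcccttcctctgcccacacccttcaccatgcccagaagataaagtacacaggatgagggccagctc
Lcn2, chr2:32387740-32387989, minus strand: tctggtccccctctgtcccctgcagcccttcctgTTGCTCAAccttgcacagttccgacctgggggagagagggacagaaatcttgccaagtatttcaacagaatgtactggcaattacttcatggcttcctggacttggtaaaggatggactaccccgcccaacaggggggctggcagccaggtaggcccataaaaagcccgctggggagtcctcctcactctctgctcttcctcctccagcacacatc
Slpi, chr2:164356508-164356757, minus strand: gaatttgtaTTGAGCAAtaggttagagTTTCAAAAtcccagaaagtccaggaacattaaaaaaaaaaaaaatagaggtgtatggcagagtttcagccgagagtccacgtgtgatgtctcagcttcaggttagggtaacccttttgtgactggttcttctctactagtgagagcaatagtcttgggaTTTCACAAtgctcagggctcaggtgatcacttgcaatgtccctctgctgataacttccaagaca
S100a8, chr3:90668821-90669070, plus strand: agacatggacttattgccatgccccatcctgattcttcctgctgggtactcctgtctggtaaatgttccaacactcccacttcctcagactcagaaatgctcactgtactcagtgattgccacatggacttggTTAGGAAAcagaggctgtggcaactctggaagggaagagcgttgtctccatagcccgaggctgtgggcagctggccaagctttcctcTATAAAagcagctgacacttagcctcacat
S100a9, chr3:90695722-90695971, minus strand: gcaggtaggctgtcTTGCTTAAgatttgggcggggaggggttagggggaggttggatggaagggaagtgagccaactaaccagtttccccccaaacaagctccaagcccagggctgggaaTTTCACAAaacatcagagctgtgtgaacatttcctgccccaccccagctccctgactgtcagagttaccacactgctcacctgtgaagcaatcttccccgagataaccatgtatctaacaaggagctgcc
The C/EBP letters occurred once in the windows of *Lcn2* (from -216) and *S100a8* (from -117), in 2 places in that of *S100a9* (from -236 and -130) and in 3 in that of *Slpi* (from -241, -223 and -64), positions being counted back from the start. They also occur in 36.8% of the 32851 windows of this length in RefSeq. The kappaB letters stood in the *Pglyrp1* window (-93 to -85), as in 7.27% of all windows, and TATAAA in that of *S100a8* (-30 to -25), as in 12.4%. A match is only a match of letters. The windows of *Pglyrp1*, *Lcn2*, *Slpi* and *S100a8* lie at least partly inside the GENCODE span of the gene, which includes transcripts that start elsewhere.

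For 6 of the 9 genes, nearly all UMIs of kept cells lay in the surface epithelium. The labels 2 to 5 held 98.9%, 94.5% and 99.0% of the *Pglyrp1* UMIs of kept cells, 99.6%, 99.8% and 99.6% of those of *Sftpd*, and 99.6%, 99.5% and 99.6% of those of *Wfdc18*. For *Slpi*, *Defb1* and *Wfdc2* the share was between 95.8% and 99.2% in every library. *Lcn2* was less restricted, with 89.5%, 64.8% and 90.7%. Kept cells are those with a label. When the unlabelled called cells of control replicate 2 were counted as well, the labels 2 to 5 held 25.5% of its *Pglyrp1* UMIs. Unlabelled cells that pass the authors' filter on cells nearly match in number the doublets that the paper predicted and removed. Those with most *Pglyrp1* had high conjunctival marker sums, and some also high corneal ones, given at the end.
The calprotectin genes departed from this. Of the *S100a8* UMIs, 77.7%, 67.3% and 20.4% lay in the labels 2 to 5, and 16.6%, 25.6% and 66.4% in label 23. In that label *Ptprc*, the common leukocyte antigen, was found in 65.7%, 81.7% and 65.1% of cells. For *S100a9* the labels 2 to 5 held 89.0%, 80.0% and 82.3%.

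**Figure D1:**
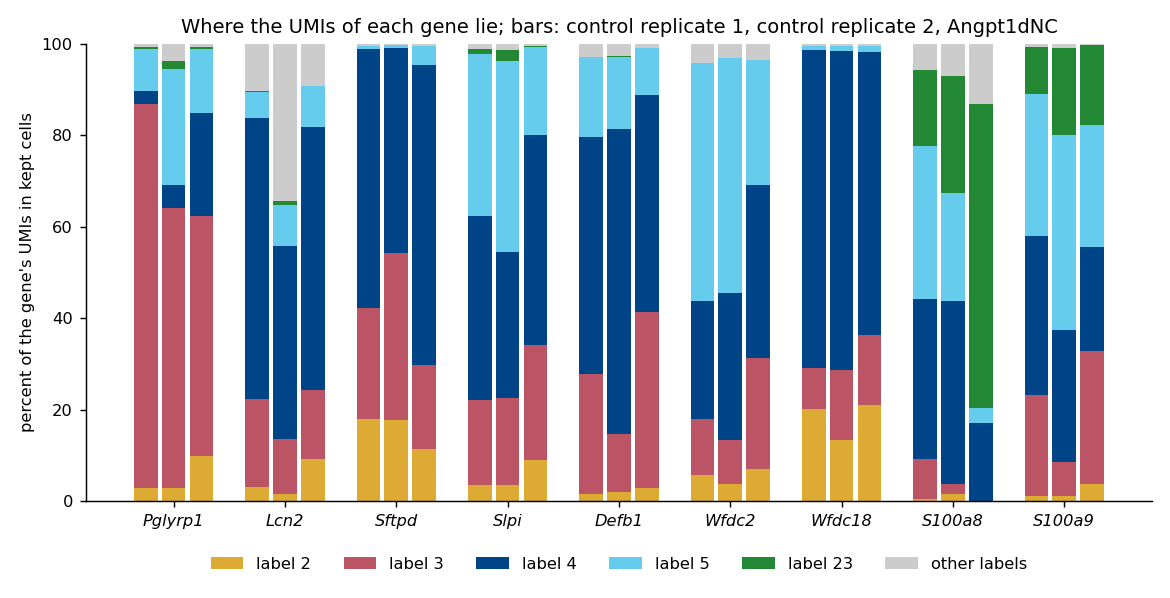
Percent of each gene's UMIs in kept cells that lay in the labels 2 to 5, in label 23 and in all other labels, as stacked bars for control replicate 1, control replicate 2 and *Angpt1*ΔNC from left to right. Label 3 held 84.1%, 61.3% and 52.5% of the *Pglyrp1* UMIs, and label 23 held 66.4% of the *S100a8* UMIs of *Angpt1*ΔNC.

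How much free RNA in the droplets added to these counts was not tested. The mural cells (labels 19 to 21: 1036, 1185 and 345 cells) should lack these transcripts, and there the share of cells with a UMI was at most 2.90% for any of the 9 genes, at a median depth of 4356 to 5027 UMIs. The mural level was at most 0.112, a value that *Lcn2* reached in control replicate 2 through a single cell with 72 UMIs. In the limbal-like cells, at median depths of 12359 to 14480.5 UMIs, the share was at least 2.96% for every gene in every library. In the other epithelial labels 7 shares were under the mural maximum. In the corneal-like cells these were *S100a8* in *Angpt1*ΔNC (2.22%), *Wfdc18* in control replicate 1 (2.09%) and *Sftpd* in both controls (0.348% and 0.792%, from 2 and 4 cells), and the last are not read as expression. *S100a8* also had 1.79% in label 2 of control replicate 1, 0 of 69 cells in label 2 of *Angpt1*ΔNC (a count that still permits 4.35% of cells) and 0 of 192 cells in its label 3 (permitting 1.56%). Intervals and such limits cover counting error only. Shares move with depth: when cells were thinned to 2000 UMIs, the share of label 3 cells of control replicate 1 with *Pglyrp1* went from 91.8% to 62.0%.

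*Pglyrp1*, which encodes a peptidoglycan recognition protein that kills bacteria, was by far the most concentrated in conjunctival-like cells. Its level in label 3 was 34.7, 8.11 and 16.1. It was 1.93, 0.920 and 6.90 in label 2, 0.497, 0.243 and 3.39 in label 4 and 0.668, 0.620 and 3.07 in label 5. Label 3 was above the other 3 labels in each library, while the label 3 values of the controls stood far apart and enclosed that of *Angpt1*ΔNC. The gene was found in 91.8% (exact 95% interval 84.5 to 96.4), 76.0% (66.4 to 84.0) and 94.3% (90.0 to 97.1) of the label 3 cells. Single cells weighed heavily: the highest held 1265 UMIs in control replicate 1, and the median level over cells was 5.17, 3.05 and 10.5. By the median, *Angpt1*ΔNC was thus the highest of the 3 libraries, whereas by the mean control replicate 1 was. Within label 3, *Pglyrp1* went with the conjunctival marker sum, with Pearson's r of ln(1 + level) of 0.66, 0.31 and 0.36 across the 92, 100 and 190 cells of at least 2000 UMIs. This is a description, since the cells of a library share its preparation and both sums share the cell's depth.

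*Lcn2* encodes lipocalin 2, which takes iron-loaded siderophores from bacteria. It was highest in the limbal-like and conjunctival-like cells of the controls, with levels of 2.81, 2.34 and 5.18 in label 4 and 2.26, 2.11 and 3.45 in label 3. The controls of label 4 were both above those of label 3, but the nearest values lay closer together than the controls of either label. Cycling-like cells had 0.538, 0.539 and 4.57 and corneal-like cells 0.130, 0.367 and 1.54, so that the control values of label 5 lay below those of all other epithelial labels. In each of the 4 labels *Angpt1*ΔNC was above both controls. Outside the epithelium, the Schlemm's canal endothelium (label SC) had 1.68, 0.712 and 1.51, in 46, 63 and 15 cells. Control replicate 2 also held 367 *Lcn2* UMIs in 35 of its 924 cells of label 17 and 229 in 18 of its 739 cells of label TM_7, where control replicate 1 held 14 and 1.

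*Sftpd*, surfactant protein D, a collectin that binds microbial sugars, was low but sharply bounded. In the controls and *Angpt1*ΔNC its level was 0.581, 0.949 and 0.703 in label 3, 0.549, 0.952 and 1.22 in label 2 and 0.448, 0.373 and 1.27 in label 4. In corneal-like cells it was 0.00164, 0.00592 and 0.137, from 3, 4 and 81 UMIs. The order of the labels 2 and 3 lay within the spread of the controls: the cycling-like cells came first when cells were thinned to 2000 UMIs, when UMIs were pooled, without the top 1% of cells and without control replicate 1.

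Among the WAP domain genes, *Slpi*, the secretory leukocyte protease inhibitor, showed a gradient over the zones. Its level was 10.7, 14.9 and 20.7 in label 3, 9.26, 8.50 and 18.7 in label 4, 4.03, 6.91 and 11.5 in label 5 and 3.32, 6.42 and 18.4 in label 2. In each label *Angpt1*ΔNC stood above both controls. In the controls label 3 was above the other 3 labels in both libraries, and the labels 2 and 5 overlapped. Between 34.8% and 66% of the control cells of an epithelial label held a UMI, against 60.0% to 81.2% in *Angpt1*ΔNC.

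*Wfdc2*, which encodes the WAP protein also called HE4, was the even one. Its level lay between 4.96 and 7.61 in each of the 4 labels and 3 libraries, and it was detected in 82.9% to 96.8% of the cells. Its highest label is not settled by the data: in the controls the means of the labels 3, 4 and 5 were 6.46, 6.84 and 6.58, and the first place passed to label 5 without control replicate 1 and to label 3 without control replicate 2. *Wfdc18*, a smaller WAP gene, was by contrast zonal and variable. It reached 12.2, 24.9 and 15.9 in label 2, 9.75, 18.4 and 7.46 in label 4 and 2.82, 12.9 and 3.43 in label 3, against 0.0399, 0.245 and 0.234 in label 5. In each of the 4 labels control replicate 2 exceeded control replicate 1, by 4.58 times in label 3, and *Angpt1*ΔNC lay between the controls in the labels 2, 3 and 5.

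*Defb1*, the beta-defensin that epithelia make without induction, was a gene of the limbal-like and conjunctival-like cells. Its level was 2.68, 3.02 and 2.48 in label 4 and 2.48, 1.43 and 3.52 in label 3, against 0.294, 0.620 and 0.603 in label 2 and 0.366, 0.347 and 0.749 in label 5. The label 4 controls were both above the label 3 controls. In *Angpt1*ΔNC label 3 was above label 4.

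**Figure D2:**
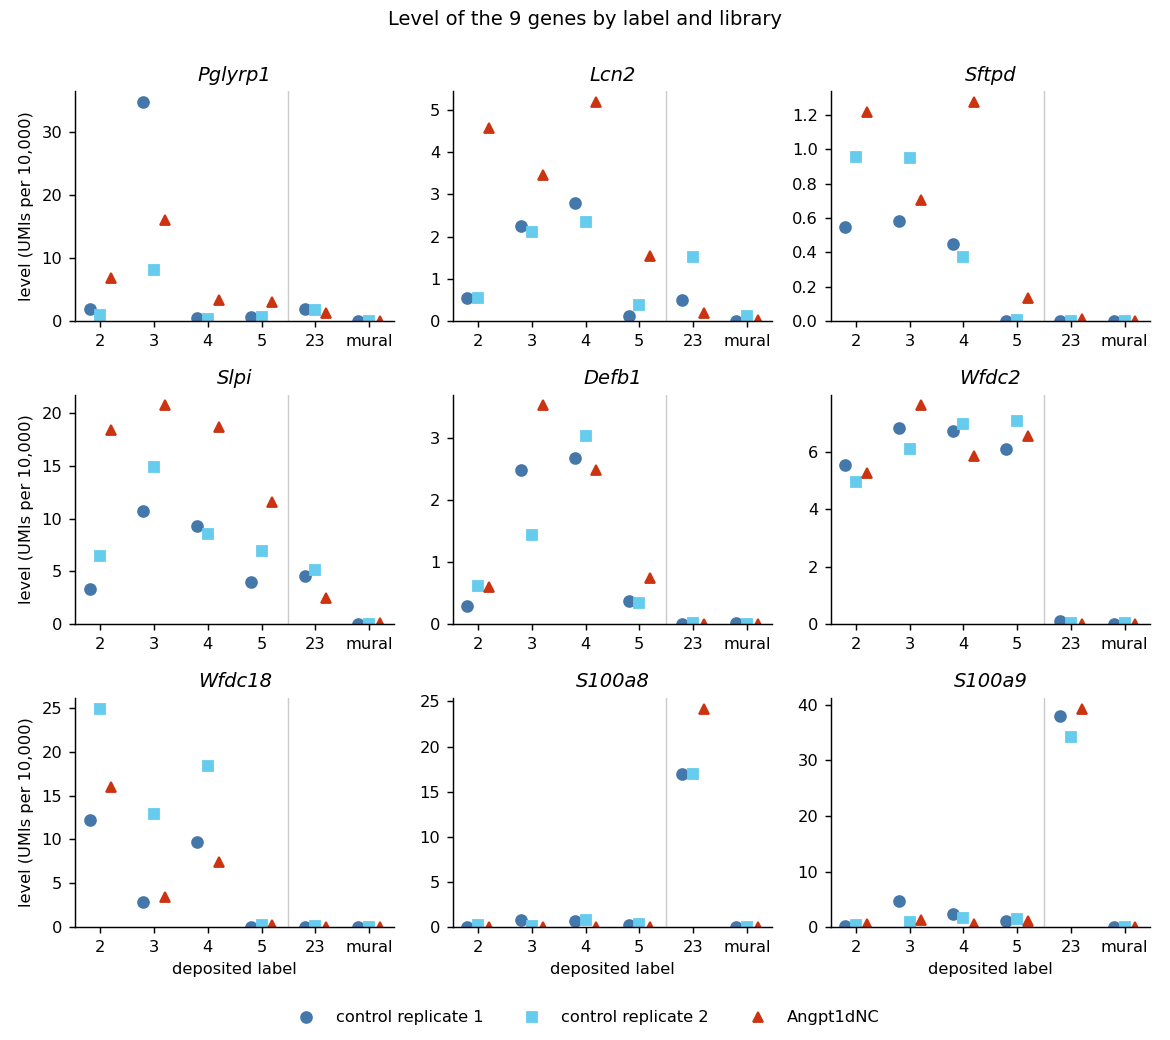
Level of each of the 9 genes (UMIs per 10,000, mean over cells, linear axis from 0) in the labels 2 to 5, in label 23 and in the mural labels 19 to 21, with 1 point for each library. *Pglyrp1* peaks in label 3 at 34.7, 8.11 and 16.1, *Wfdc2* is level from 4.96 to 7.61 over the labels 2 to 5, and *S100a8* and *S100a9* peak in label 23.

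*S100a8* and *S100a9* were highest in label 23, at levels of 17.0, 16.9 and 24.2 for *S100a8* and 38.0, 34.2 and 39.3 for *S100a9*. These levels rest on few and shallow cells: *S100a8* was found in 5 of 70, 14 of 142 and 4 of 86 cells (7.14%, 9.86% and 4.65%). With the UMIs of the label pooled its level was 4.39, 3.78 and 4.72, and among cells of at least 2000 UMIs, thinned to that number, it was 6.94, 0 and 0. Leaving out cells with a UMI of *Ptprc* brought the control mean in label 23 from 16.9 to 40.6 for *S100a8* and from 36.1 to 77.0 for *S100a9*. The cells of that label without *Ptprc* thus had higher mean levels than the whole label. What share of these UMIs lay in them was not counted. In the epithelium *S100a9* had 4.76, 0.898 and 1.34 in label 3, 2.37, 1.60 and 0.538 in label 4, 1.14, 1.45 and 1.13 in label 5 and 0.296, 0.394 and 0.515 in label 2. *S100a8* had 0.650, 0.846 and 0.0613 in label 4, 0.252, 0.356 and 0.0334 in label 5, 0.823, 0.133 and 0 in label 3 and 0.0366, 0.202 and 0 in label 2. *Angpt1*ΔNC was below both controls for *S100a8* in each of the 4 labels. The label 3 value of control replicate 1 rested on 7 cells, 1 of which held 63 of the 108 UMIs.

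The cells with both transcripts differed in kind between the epithelium and label 23. In the labels 2 to 5, 68, 49 and 16 cells held both, at a median depth of 20160.5, 15308 and 21476.5 UMIs. They carried 1, 2 and 0 UMIs of the 8 neutrophil markers (*Ly6g*, *Cxcr2*, *Retnlg*, *Mmp8*, *Mmp9*, *Ngp*, *Camp* and *Csf3r*), and their median *S100a8* level was 2.1, 4.36 and 1.17. In label 23, 4, 14 and 4 cells held both, at a median depth of 1536.5, 1382 and 1620 UMIs, with 46, 49 and 28 neutrophil marker UMIs and a median *S100a8* level of 294, 106 and 585. The label 23 cells were thus small and rich in calprotectin transcripts, and the epithelial ones were deep, with neutrophil markers at or near 0. Over all cells of the labels 2 to 5, the neutrophil list summed to between 0.00677 and 0.0345 per label and library, with 4 to 7 of its 8 genes at 0.

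**Figure D3:**
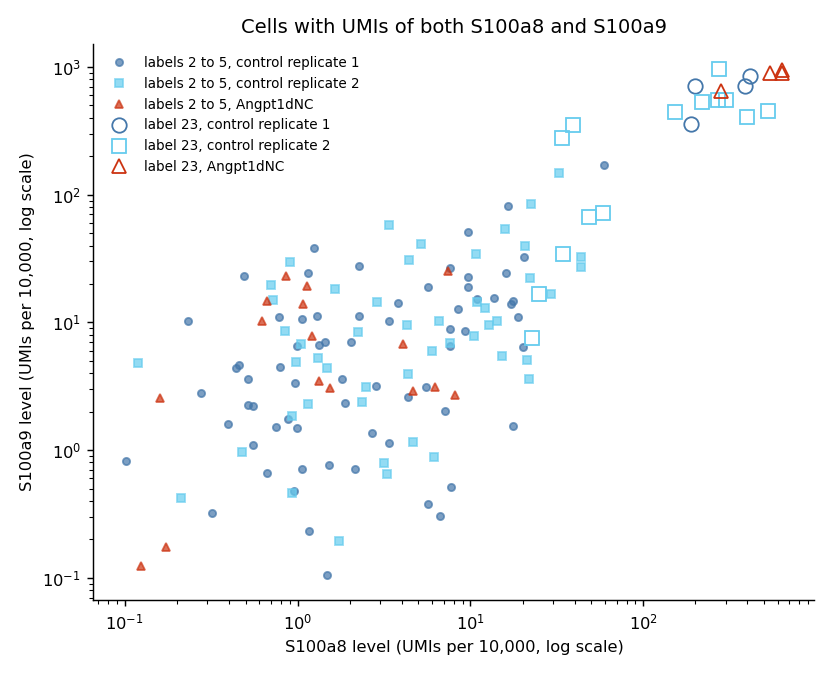
*S100a9* level against *S100a8* level (UMIs per 10,000, both axes logarithmic) in each cell with UMIs of both, filled for the labels 2 to 5 and open for label 23. The epithelial cells have median *S100a8* levels of 2.1, 4.36 and 1.17, and the label 23 cells of 294, 106 and 585.

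Of the epithelial cells with *S100a8*, 64.8%, 56.3% and 64.0% also held *S100a9*, whereas of those with *S100a9* only 27.6%, 30.1% and 8.29% held *S100a8*. Across cells within a label the 2 genes had the highest correlations of any pair of members in label 4, with r of 0.41, 0.46 and 0.33, on ln(1 + UMIs) over 408, 505 and 637 cells thinned to 2000 UMIs. In label 3 the controls gave 0.54 and 0.49. Pairs of other genes were lower there. *Slpi* and *Wfdc2* ran from -0.06 to 0.13 over the labels 3, 4 and 5, and *Pglyrp1* and *Slpi* from -0.15 to 0.13. These correlations in sparse counts are descriptions only.

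Single cells often held several of the 9 transcripts. After thinning to 2000 UMIs, at least 3 members were detected in 45.7%, 39.0% and 66.3% of the conjunctival-like cells, 35.3%, 35.2% and 50.9% of the limbal-like cells, 23.2%, 36.6% and 58.0% of the cycling-like cells and 4.19%, 10.5% and 20.4% of the corneal-like cells. In each label *Angpt1*ΔNC was above both controls. No member was detected in 98.2%, 98.2% and 96.8% of the mural cells.

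Genes with the most similar profile were sought by Pearson's r of log2(level + 0.1) over the 35 labels, among the 7760 genes with a level of at least 0.5 in some label over the cells of both controls. *Sftpd* was closest to *Krt7* (r = 1.00), *Alox12e* (0.98) and *Ccl20* (0.97), and *Wfdc18* to *Ccl20* (0.98), *Krt7* (0.97) and *Sftpd* (0.97). *Pglyrp1* was closest to *Il1f9* (0.87), *Asprv1* (0.85) and *Krt80* (0.84), and *Slpi* to *Dmkn* (0.96), *Rhov* (0.95) and *Serpinb2* (0.95). *Defb1* (*Adam28*, 0.93) and *Wfdc2* (*Crb3*, 0.94) shared *Ckmt1* among their 3 closest genes. *S100a8* and *S100a9* were each other's closest gene (0.96). *Lcn2* had no close match, its best being *Pglyrp1* (0.68). Labels share libraries and the contrast of epithelium with the rest, so r is high for many epithelial genes.

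Among 33 other antimicrobial genes on a list drawn up with earlier results known, 10 were detected in at least 5% of the control cells of a label from 2 to 5, and 13 had no control UMI there. The widest was *Rnase4*, a ribonuclease gene, with up to 61.0% of cells and a level of up to 0.688. *S100a7a* reached 31.1%, *Ltf* (lactotransferrin, an iron-binding protein) 22.4%, *Pglyrp4* 21.4%, *Lypd8* 14.4% and *Defb14* 13.3%. The 13 genes without a control UMI included the surfactant genes *Sftpa1*, *Sftpb* and *Sftpc*, the lectins *Reg3b* and *Reg3g*, and *Pglyrp2* and *Pglyrp3*. The surfactant protein and peptidoglycan recognition families were thus each present in these cells in part. *Camp* and *Lyz2* on this list also stand on the neutrophil and macrophage lists. Of 12 receptors and partners of the 9 proteins, 3 passed the same 5% limit, and of 26 sensors and inducers, 21 did.

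The comparison between genotypes asks how the transcripts of these cells differ between *Angpt1*ΔNC and control eyes. It used counts summed per library and label in edgeR's quasi-likelihood test, fitted over all genes with Benjamini-Hochberg adjustment, with 2 libraries against 1 and 1 residual degree of freedom. Nothing shows how far *Angpt1*ΔNC libraries vary, and the lone one was assumed to vary like the controls, so the p-values measure only the spread between these pools. In label 4 the fit gave every gene the spread common to all genes (prior degrees of freedom infinite), which makes the adjusted p-values there very small. Without the filter on low counts that common spread was used instead in the labels 2, 3 and 5, so which calls pass turns on the filter. The members were chosen with the values of each library known, so their counts are no independent evidence.

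Limbal-like cells had the most calls, 7 of the 9 members. Of 10521 genes tested, 6.19% were called higher and 5.76% lower in *Angpt1*ΔNC, and of the members 4 were called higher and 3 lower. *Pglyrp1*, at 0.497 and 0.243 in the controls and 3.39 in *Angpt1*ΔNC, had a log2 difference of 3.37 ± 0.16 (SE, edgeR adjusted p = 7.24e-89). *Sftpd* differed by 1.74 ± 0.17 (edgeR adjusted p = 1.56e-21), *Lcn2* by 1.29 ± 0.16 (1.94e-13) and *Slpi* by 1.24 ± 0.19 (8.82e-09). The *Lcn2* call was lost when Y-linked cells alone were compared (0.14, edgeR adjusted p = 0.730). These 4 genes were above both controls, with shares of positive cells of 75.2% against 34.8% and 24.5% for *Pglyrp1* and of 60.7% against 29.5% and 23.9% for *Sftpd*. *S100a8*, in 49 of 414, 50 of 507 and 19 of 641 cells, was lower by -3.11 ± 0.23 (4.20e-39), and *S100a9* by -1.40 ± 0.18 (3.64e-13). *Wfdc18* was lower by -0.88 ± 0.21 (edgeR adjusted p = 0.0004983), a call that DESeq2 did not make (adjusted p = 0.988) and that shrinks to -0.27 without control replicate 2. *Defb1* (-0.03 ± 0.16) and *Wfdc2* (-0.04 ± 0.18) did not pass. The conjunctival list summed to 3.87, 4.90 and 5.91 in this label, with *Krt18* called higher and *Krt13* lower of 6 tested, and *Agr2* of the goblet list was higher (0.77 ± 0.23). Lower were *Aldh3a1* (-0.65 ± 0.18) and *Tkt* (-0.49 ± 0.18) of the corneal list, which summed to 53.5, 42.1 and 34.1. The other corneal genes tested ran from -0.28 (*Krt12*) to 0.26 (*Pax6*). *Aqp5* of the gland list was lower (-3.00 ± 0.42), and the list summed to 0.202, 0.0660 and 0.0225. That list was highest in label 5 (18.0, 12.7 and 7.26) and is not read as a sign of gland cells. *Acta2* of the mural list was lower (-0.91 ± 0.23), and the list summed to 0.650, 0.330 and 0.242. The other mural genes tested ran from -2.15 (*Myh11*) to 0.45 (*Notch3*). *Agr2* and *Aqp5* were the only genes of their lists tested. The part of these markers in the differences was not tested. Without the filter on low counts the prior degrees of freedom were 2.11 and no gene was called in label 4 (1692 of 16735 at an unadjusted p under 0.05), the 7 members having adjusted p-values of 0.457 to 0.594 and unchanged directions.

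In the corneal-like cells 5 members were called, where 1.26% of 11365 genes were higher and 0.968% lower. *Sftpd* is one of them, with 3 UMIs in 575 cells and 4 in 505 cells of the controls and 81 UMIs in 270 cells of *Angpt1*ΔNC, a ratio of 40.4 (interval 18.7 to 104, counting error only). It passed the filter on low counts only through the library in which it is high and so had to differ, and its call is no evidence beyond these counts. *Pglyrp1* was higher by 2.16 ± 0.14 (0.002659), *Lcn2* by 2.76 ± 0.43 (0.02904) and *Defb1* by 1.00 ± 0.15 (0.02823), and *S100a8* was lower by -3.63 ± 0.27 (edgeR adjusted p = 0.002866). The *Lcn2* call was lost in DESeq2 (adjusted p = 0.266) and in Y-linked cells (1.35, edgeR adjusted p = 0.136). *Slpi* (1.24 ± 0.35, edgeR adjusted p = 0.134) and *Wfdc18* (1.14 ± 0.53, 0.303) did not pass, although *Slpi* was above both controls. *Wfdc2* and *S100a9* each differed by 0.09.
Markers of neighbouring zones moved only in part with these differences. The limbal list had a median log2 difference of 0.10 in label 5. Apart from *Krt15*, its genes ran from -0.09 (*Trp63*) to 0.37 (*Cdh13*). The conjunctival list in label 5 summed to 0.626 and 1.23 in the controls and 2.80 in *Angpt1*ΔNC, with 4 of its 7 genes called higher, among them *Krt4* (4.14 ± 0.40) and *Krt19* (4.01 ± 0.27), and *Krt15* of the limbal list was higher by 3.36 ± 0.51. *Agr2*, the 1 goblet marker tested, was higher by 2.49 ± 0.38, at levels of 0.0273, 0.0177 and 0.104. The corneal list summed to 371, 303 and 264, with none of 7 called. The part of these markers in the differences of the 9 genes was not tested.

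Cycling-like cells gave 3 calls, all higher, where 1.32% of 8356 genes were higher and 0.862% lower. *Lcn2*, with 83 and 48 UMIs in the controls and 897 in *Angpt1*ΔNC, differed by 3.16 ± 0.21 (edgeR adjusted p = 1.55e-06), *Pglyrp1* by 2.40 ± 0.31 (0.00112) and *Slpi* by 2.04 ± 0.29 (0.001621). The last pair were not called by DESeq2, with adjusted p-values of 0.454 and 0.545, and that of *Pglyrp1* was also lost in Y-linked cells (1.11, edgeR adjusted p = 0.141). Y-linked cells of *Angpt1*ΔNC numbered only 12 in this label. *S100a8* had 5 and 20 UMIs in the controls and none among 69 cells of *Angpt1*ΔNC, and did not pass in edgeR. Counted as if UMIs were independent, it was at least 8.70-fold lower against a floor of 3 UMIs over the library. That bound is 2.37-fold without control replicate 2 and 15.03-fold without control replicate 1. By cells there is hardly a bound, as the control UMIs lay in 1 of 56 and 4 of 41 cells. These are 1.79% and 9.76%, beside the 4.35% that 0 of 69 cells permits. *Defb1*, *Sftpd*, *S100a9*, *Wfdc18* and *Wfdc2* did not pass, with differences from -0.47 to 0.89. The conjunctival list summed to 5.75, 7.11 and 12.5 here, with 3 of the 5 genes tested called higher and *Muc4* at 0 in both controls, and its part was not tested.

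In the conjunctival-like cells no member passed, and no gene at all of 8953 did (0% higher and 0% lower in edgeR, 521 genes at an unadjusted p under 0.05, 25 genes called by DESeq2). *Pglyrp1* differed by -0.64 ± 0.88, *Wfdc18* by -1.20 ± 0.83 and *S100a9* by -0.62 ± 0.74, the SE reflecting how far apart the controls lay. Leaving out control replicate 1 turned *Pglyrp1* to 0.78 and *S100a9* to 0.53, and leaving out control replicate 2 turned *Wfdc18* to 0.11. *Slpi* (0.62 ± 0.32) and *Lcn2* (0.41 ± 0.22) were above both controls without passing. *S100a8*, with 108 and 32 UMIs against none in 192 cells, did not pass in edgeR. Counted as if UMIs were independent, it was at least 51.7-fold lower. That bound is 26.3-fold without control replicate 1 and 77.03-fold without control replicate 2. By cells the bound is far smaller, as the control UMIs lay in 7 of 98 and 3 of 100 cells. These are 7.14% and 3.00%, beside the 1.56% that 0 of 192 cells permits. *S100a8* was lower in this sense only. It was the 1 member that DESeq2 called here (adjusted p = 0.007192). The conjunctival list summed to 32.3, 31.9 and 30.6 here. Of its genes *Krt19* was even (9.81, 9.52 and 11.1), while *Muc4* (4.43, 0.557 and 1.98) and *Krt18* (1.03, 4.88 and 1.915) differed between the controls. The corneal list summed to 81.2, 74.7 and 53.4. The gland list summed to 11.0, 3.05 and 0.426, nearly all of it *Aqp5* (11.0, 3.04 and 0.399). It was higher in the corneal-like label 5 (18.0, 12.7 and 7.26) and is not read as a sign of gland cells. With no gene called in this label, none of these markers could be, and their part was not tested. Whether the differences of label 3 depart from those of the labels 2, 4 and 5 was not tested.

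**Figure D4:**
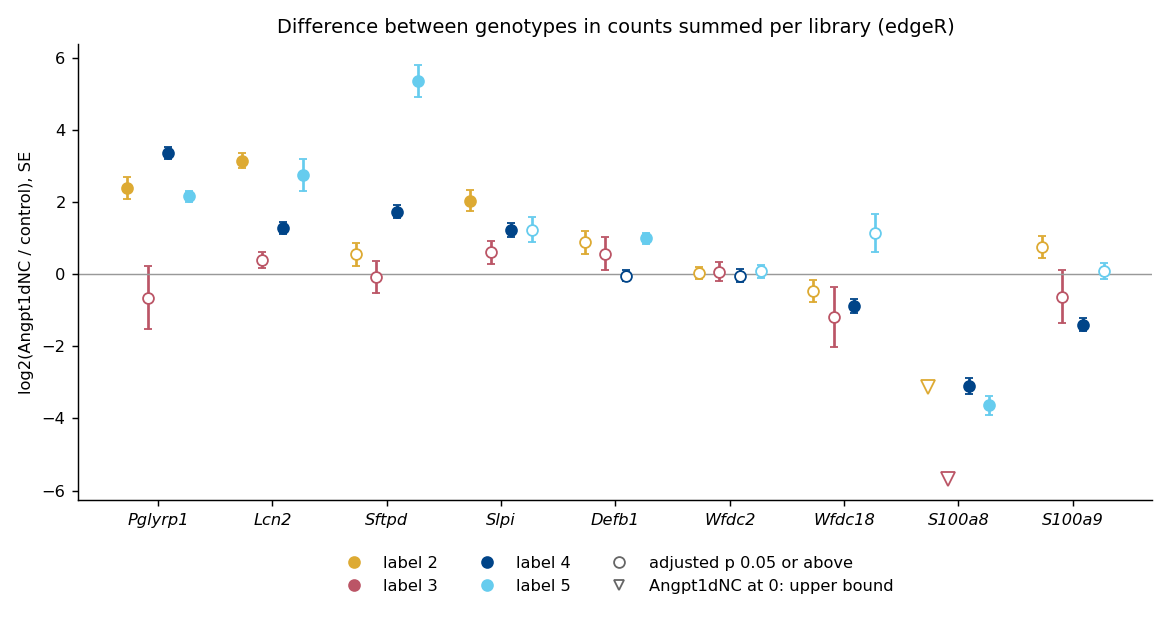
Log2 difference of *Angpt1*ΔNC minus control in counts summed per library, by edgeR, for the 9 genes in the labels 2 to 5, with bars of 1 SE. Filled points passed an adjusted p of 0.05 (3 in label 2, 0 in label 3, 7 in label 4 and 5 in label 5), and triangles mark *S100a8* where *Angpt1*ΔNC had no UMI, as an upper bound.

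By level alone, the members above both controls numbered 5 of 9 in label 2 (22.3% of all genes tested), 4 in label 3 (31.5%), 4 in label 4 (25.2%) and 5 in label 5 (29.9%). Those below both controls numbered 1 in label 2 (51% of all genes), 1 in label 3 (34.3%), 5 in label 4 (49.2%) and 2 in label 5 (48.1%). The median log2 difference of the members was 0.76, -0.08, -0.03 and 1.14 in the labels 2 to 5, against -0.03, -0.04, -0.01 and -0.02 over all genes tested. *Lcn2* and *Slpi* were above both controls in each of the 4 labels, and *Pglyrp1* and *Sftpd* in the labels 2, 4 and 5. *S100a8* was below both in each.

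Within *Angpt1*ΔNC the cells with *Xist* and the cells with Y-linked transcripts differed in *Lcn2* and *Pglyrp1*. That library pools 2 to 3 mice, so sex cannot be told apart from the individual animal in it. In label 4, *Lcn2* had a level of 7.59 in the 348 cells with *Xist* and 2.50 in the 219 cells with a Y-linked UMI, against 3.18 and 2.04 in the Y-linked cells of the controls. *Pglyrp1* had 4.96 and 1.52, against 0.494 and 0.239. Set against control cells of the same typing, *Pglyrp1* in label 4 had a smaller difference that was still called (2.09, edgeR adjusted p = 3.19e-08), while the call of *Lcn2* was lost as given above. *Slpi* went the other way, with 16.6 in cells with *Xist* and 22.9 in Y-linked cells, against 9.92 and 9.51 in the controls. *Sftpd* (1.48 and 1.13) and *S100a8* (0.0765 and 0.0551) were on the same side of the controls in both kinds of cell.
The other labels gave the same order for *Lcn2*, at 5.46 and 1.01 in label 2, where only 12 cells of *Angpt1*ΔNC were Y-linked. In label 3, with 82 Y-linked cells, *Lcn2* had 5.98 and 0.926, and in label 5, with 96, it had 2.29 and 0.589. In Y-linked cells of label 3 its level was below that of both controls (2.52 and 2.17). *Slpi* in label 5 passed in Y-linked cells (1.70, edgeR adjusted p = 0.02716). The control libraries hold no cell with *Xist* in these labels, so a difference between genotypes cannot be examined in such cells.

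**Figure D5:**
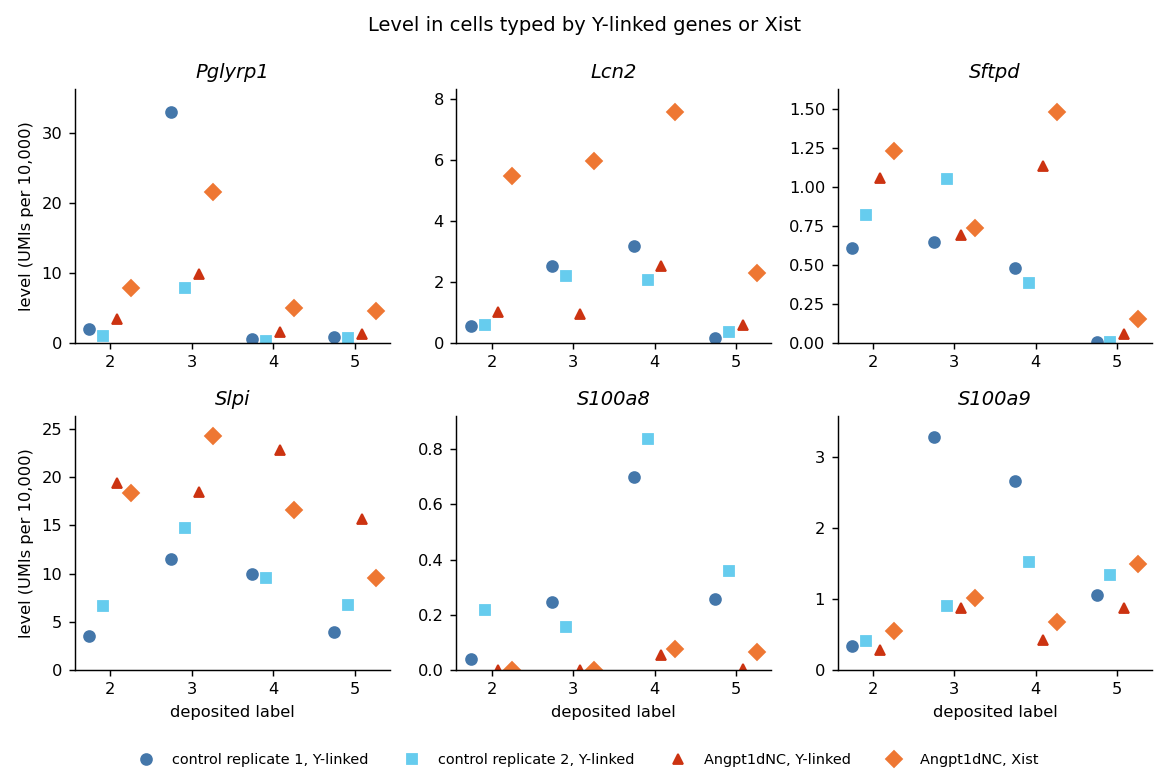
Level (UMIs per 10,000) of 6 of the genes in the labels 2 to 5, for cells with a Y-linked UMI and no *Xist* in each library and for cells with *Xist* and no Y-linked UMI in *Angpt1*ΔNC. In label 4, *Lcn2* is at 7.59 in the *Xist* cells and at 2.50 in the Y-linked cells of *Angpt1*ΔNC, beside 3.18 and 2.04 in the controls.

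Among 26 genes that sense microbes or induce such proteins, 19, 20, 20 and 21 were tested in the labels 2 to 5, and 0, 0, 4 and 1 were called higher and 1, 0, 2 and 0 lower. Their median log2 difference was 0.05, -0.07, -0.05 and 0.06. In label 4 the 4 higher and 2 lower of 20 stand beside 6.19% and 5.76% of all genes tested. In label 4 these were *Tlr2*, a receptor for bacterial lipoproteins (0.341 and 0.193 in the controls, 0.509 in *Angpt1*ΔNC, 1.09 ± 0.19), the NF-kappaB genes *Nfkb1* (0.58 ± 0.16), *Rela* (0.50 ± 0.17) and *Nfkbiz* (0.71 ± 0.22), and, lower, the C/EBP genes *Cebpd* (2.97 and 3.73 against 1.17, -1.50 ± 0.18) and *Cebpb* (-0.56 ± 0.20). *Tlr2* was also higher in label 5 (1.31 ± 0.24) and *Cebpd* lower in label 2 (-1.50 ± 0.28). The other antimicrobial genes gave a single call, *Ltf* in label 4, with 3 and 3 UMIs in the controls and 31 in *Angpt1*ΔNC. As with *Sftpd* in label 5, it was tested only through the library in which it is high. None of the 2 to 4 receptors and partners tested per label was called.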

How the data were processed

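The study made droplet single-cell libraries from the limbus and iridocorneal angle, with much of the conjunctiva removed at dissection. The authors deposited 1 matrix of raw UMI counts per gene for each library, made with Cell Ranger (3.0.2 in the matrix headers, 2.1.1 in the submitters' processing notes) on mm10, together with natural-log expression values of kept cells, integrated over libraries with Seurat 3.1.3. Of that integrated table only the cell labels were used. The authors removed doublets with scDblFinder before they deposited the labels, and no doublet caller was run here. Cells were kept where the authors gave a label (9076 and 10160 in the 2 controls and 6772 in *Angpt1*ΔNC, from 11255, 12625 and 8614 called cells), after a stated filter of 200 genes, 1000 UMIs and 10% mitochondrial UMIs. Kept cells held 76981606, 80346829 and 66484181 UMIs, at a median of 6329.5, 6393.5 and 7444 per cell.

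Each cell's UMIs of a gene were scaled to 10,000 UMIs of that cell, and a level is the mean of these values over cells. Shares of cells with a UMI have exact Clopper-Pearson 95% intervals, and for 0 cells a limit of 3 cells, covering counting error only. Between genotypes, counts were summed per library and label and tested with edgeR 4.0.16 (R 4.3.3; filterByExpr, TMM, quasi-likelihood, Benjamini-Hochberg threshold 0.05). DESeq2 1.42.0, its size factors, no filter, equal numbers of cells per library, Y-linked cells alone and leaving out each control were alternatives. Levels of cells with *Xist* and of Y-linked cells within *Angpt1*ΔNC were added after seeing the data. The tests were first checked on simulated counts. Tables used Python 3.11.15 with numpy 2.4.6, pandas 2.3.3 and scipy 1.17.1, and GENCODE M21 positions matched 30934 of 31053 gene IDs.

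The genes named are the 9 members, the 3 genes closest to each in profile, the targeted gene and, of the lists, those detected in at least 5% of the cells of a label from 2 to 5 or at 0 where defining. The members and lists were chosen with earlier results of these data known. Labels carry names only by their marker lists. Replicates are pools of animals. No replicate number pairs a control with the single *Angpt1*ΔNC library.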

Additional observations from a re-analysis of the deposited data

Results flagged for a closer look

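For 3 of the genes *Angpt1*ΔNC lay on opposite sides of the controls in different labels. *Defb1* had a level of 1.80 times the control mean in label 3 and 2.1 times in label 5, above both controls in each, against 0.869 in label 4, below both. *Wfdc2* was at 1.18 times the control mean in label 3 and 0.857 in label 4. *S100a9* was at 1.49 times in label 2, against 0.271 in label 4 and 0.876 in label 5. In label 5 its level of 1.13 hardly differed from that of control replicate 1 (1.14), and the summed counts gave a log2 difference of 0.09, of the opposite sign. Whether these differences depart from each other between labels was not tested.

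Called cells without a label also held transcripts of the 9 genes. Those that pass the stated filter nearly match in number the doublets that the paper predicted and removed. In *Angpt1*ΔNC both numbers are 482. These cells are thus most likely the predicted doublets, and they are not read as a further cell population. In control replicate 2, the 1189 unlabelled cells that pass the stated filter had a *Pglyrp1* level of 2.85, from 9276 UMIs in 140 cells, against 0.172 in its kept cells, and with the cells that fail the filter they held 73.0% of that library's *Pglyrp1* UMIs. The 10 cells with most of it carried 66.3% of the 9276 UMIs. Their conjunctival marker sums ran from 43.5 to 147, beside 31.9 in label 3 of that library. Their limbal sums ran from 0.644 to 308 and their corneal sums from 0 to 649, beside 244 and 74.7 in that label. The cell with the lowest conjunctival sum had the highest limbal and corneal sums, so these cells were not all conjunctival-like. In *Angpt1*ΔNC, the 482 such cells had levels of 0.971 for *Pglyrp1*, 0.917 for *Lcn2*, 0.110 for *Sftpd* and 2.49 for *Slpi*, where the kept cells of that library had 1.01, 0.821, 0.160 and 3.08. Each exceeds 2 times the higher kept-cell level of the controls, but the same kind of cell in control replicate 1 and control replicate 2 had 0.384 and 2.85 for *Pglyrp1*, 0.294 and 0.499 for *Lcn2*, 0.0504 and 0.0289 for *Sftpd* and 1.18 and 1.67 for *Slpi*. In control replicate 1, the 1247 cells that fail the filter had 0.696 for *S100a8* (51 UMIs) and 2.00 for *S100a9* (148 UMIs), and 5 cells with both genes, at a median of 544 UMIs, held 48 and 143 of these UMIs together with 21 UMIs of neutrophil markers.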

How the results depend on the processing

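Of the 15 calls of members between genotypes, 15 were kept with DESeq2 size factors and with equal numbers of cells, 11 in DESeq2, 8 without the filter on low counts and 12 in Y-linked cells, and the direction of each held when either control was left out. DESeq2 called 68 genes in label 2, 25 in label 3 and 213 in label 4, where edgeR called 182, 0 and 1257, and 1 member in label 2 and 1 in label 3. Without the filter edgeR called 505, 399, 0 and 1209 genes in the labels 2 to 5, with 2 members in label 3 and 0 in label 4. Equal numbers of cells gave 286 genes in label 2, and Y-linked cells 5 in label 3. In Y-linked cells the direction turned for *Wfdc2* in label 2 (-0.93) and label 3 (-0.47), *Lcn2* in label 3 (-1.22), *Defb1* in label 4 (0.42), *Wfdc18* in label 5 (-1.59) and *S100a9* in label 5 (-0.076), and with equal numbers of cells for *Sftpd* (0.26) and *Wfdc2* (-0.085) in label 3. The cause was not tested. Control mean levels moved past their spread for 9 of 36 values when cells were thinned, 4 when UMIs were pooled, 15 without the top 1% of cells and 1 after subtracting the mural level. With 2 control libraries and 1 *Angpt1*ΔNC library, and 41 to 100 control cells per library in the labels 2 and 3, depth limits *S100a8* most, which rests on 5 to 108 UMIs per control library there.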
